A study of Gallus gallus with 33 samples.

Results

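ADORA2A and ADCY1, a pair of genes of adenosine signalling, were followed after laser wounding in sensory epithelium (SE) from the utricle, a vestibular organ, of the chick. They are 2 of the 1516 identifiers analysed on an array that otherwise holds mostly transcription factor genes. ADORA2A was selected on its measured ratio of laser over control, which lay above 0 in every biological sample, so its ratios are given below as a description, with no test against 0. ADCY1 was added as the enzyme on the array that makes cyclic AMP (cAMP). Both were among the 371 probes that passed a filter on dim spots, which asked that 50% of the arrays or more have a mean signal over 1000 in the laser or the control channel.

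Adenosine gathers outside cells when tissue is injured, largely through the breakdown of released ATP. ADORA2A encodes an adenosine receptor of the cell surface, which couples to the stimulatory G protein and so switches on adenylyl cyclases, the enzymes that make cAMP. ADCY1 is one of these cyclases, known in the mammalian brain for its activation by calcium and calmodulin, and in humans it has been linked to hereditary hearing loss. cAMP activates protein kinase A, which phosphorylates CREB1, and CREB1 with the coactivators CREBBP and EP300 turns on early genes such as FOSB and JUNB.

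The laser group was utricle SE from White Leghorn chicks, grown in culture in fibronectin-coated wells, cut with a pulsed laser microbeam and collected at 1 of 4 times, the earliest at 30 min and the latest at 3 hr. The control group was SE cultured and handled in the same way for the same time without a lesion. A biological sample pooled 4 lesioned and 4 unlesioned cultures, the RNA of each side was amplified, and both sides were hybridized together on 2-colour arrays of oligonucleotides designed on human genes, so all ratios rest on binding across species. The 9 biological samples were read on 33 arrays. The 30 min, 1 hr and 2 hr times had 2 samples each, on 5, 6 and 8 arrays, and the 3 hr time had 3 samples on 14 arrays. The laser RNA carried Cy3 on 18 arrays and Cy5 on 15, and each sample had at least 1 array of each orientation.

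The sample names used below are the time and the replicate number of the labels. The median spot signal of an array ranged between 178 and 2411 in Cy3 and between 90.2 and 1438 in Cy5, and the median signal over local background had a median over arrays of 1.38 in Cy3 and 1.18 in Cy5, so many spots were close to background. Of the hair cell genes searched for, 5 were on the array and 0 passed the dim filter (ATOH1, POU4F3, GFI1, BARHL1 and MYT1 did not), whereas of the supporting cell and prosensory genes SOX2, HEY1, HEY2 and ID1 were among those that did and 10 did not. The filter also passed 3 of 5 neuronal genes (NEUROG1, POU4F1 and ISL1), 1 of 8 connective tissue genes (TCF21) and 1 of 7 blood cell genes (SPI1), against 24.5% of all identifiers. A difference in the number of cells of a type and a difference in RNA per cell cannot be told apart in such pooled cultures. In 4 of the 9 samples the means of the 2 dye orientations, both turned to laser over control, correlated below -0.3 over the tested probes. The correlation was -0.638 for 1 hr replicate 2 and -0.365 for 2 hr replicate 2, and replicates 2 and 3 of 3 hr had -0.783 and -0.798. The image names in the file headers state which dye the laser RNA carried on all arrays, but with such opposed orientations the direction of the ratios in these 4 samples is not settled. In the other samples the correlation lay between -0.037 (30 min replicate 2) and 0.798 (3 hr replicate 1). A settled direction below means only that it was not under -0.3. In addition, file name and header name opposite dyes on 2 arrays, 1 of 2 hr replicate 2 and 1 of 3 hr replicate 2, and these were read by the header. For 3 hr replicate 2 it is the only array with laser in Cy3, and its ratios change sign when read by file name. The opposed orientations of 3 hr replicate 2 thus depend on the reading by header.

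ADORA2A gave a signal above background in wounded and in control SE on most arrays. Its laser signal over the local background had a median of 2.04 over the 33 arrays, between 0.831 and 31.0, and its control signal a median of 1.86, between 0.697 and 6.18. The laser signal exceeded the background mean plus 2 background SDs on 25 of 33 arrays, the control signal on 21 and both on 19. The laser channel passed this limit on 3 of 5 arrays at 30 min and on 4 of 6 at 1 hr, and the control channel on 3 arrays each time. For the later times it was 5 of 8 at 2 hr and 13 of 14 at 3 hr in the laser channel, and 6 and 9 arrays in the control channel. Of all identifiers, 44.3% were detected on 50% of the arrays in the laser channel and 31.1% in the control channel. At a stricter limit, a spot median above the background median plus 3 background SDs, ADORA2A passed on 21 arrays in the laser channel and 19 in the control channel. The receptor's probe thus gave a signal at every time point in both channels, with the clearest detection in the laser channel at 3 hr. These signals are not normalized, and the most intense ones, on 2 arrays of 3 hr replicate 1 at 31.0 and 10.1 times background in the laser channel, against 1.07 and 4.52 times in the control channel, come from a sample in which the raw laser signal of both genes exceeded the control signal on all 6 arrays. After normalization those 2 arrays gave log2 ratios of 0.66 and -0.24. Their file headers name the field TF2, as on 4 of the 6 arrays of this sample.

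**Figure D1:**
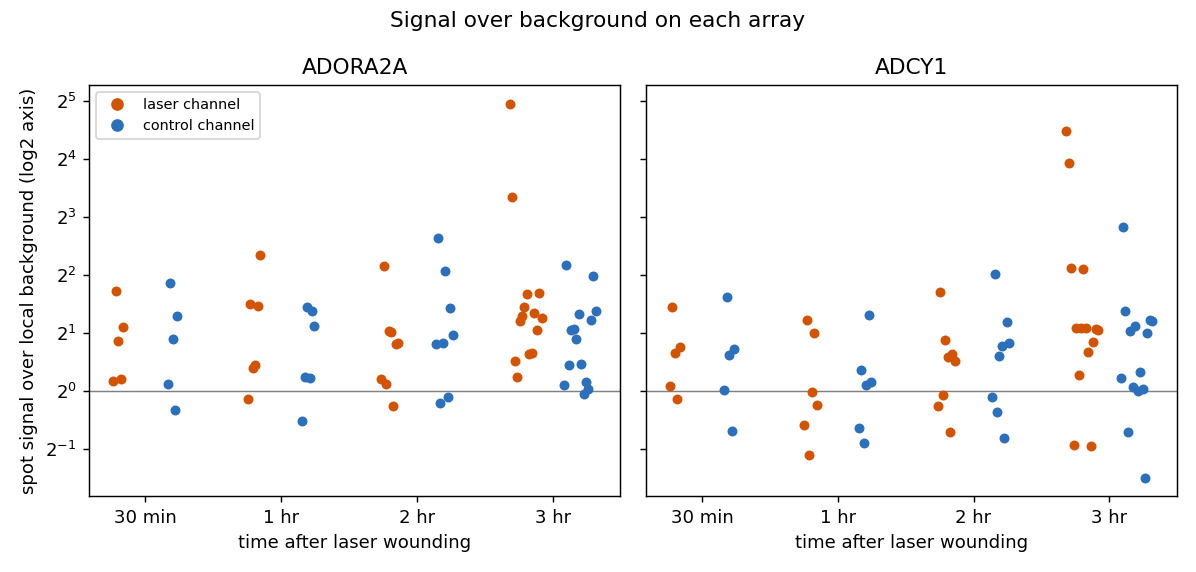
Spot signal over local background (log2 axis, no unit) of ADORA2A (left) and ADCY1 (right) on each of the 33 arrays, by time after wounding, with the laser channel left of the control channel at each time and a line at 1, where signal equals background. ADORA2A lies above the line on most arrays, with medians of 2.04 in the laser channel and 1.86 in the control channel, and the medians of ADCY1 are 1.59 and 1.27.

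ADCY1 passed the background limit on fewer arrays. Its laser signal over background had a median of 1.59 and its control signal a median of 1.27. It exceeded the background limit in the laser channel on 20 of 33 arrays, in the control channel on 16 and in both on 15, and it lay below its own local background on 10 arrays in the laser channel and on 9 in the control channel. At the stricter limit it passed on 17 arrays in the laser channel and on 13 in the control channel. Only just over the required share of arrays, 17 of 33 (51.5%), had an ADCY1 signal over 1000 in either channel, compared with 25 (75.8%) for ADORA2A. By channel, ADCY1 was over 1000 on 16 arrays in laser and 9 in control, and ADORA2A on 24 and 14. Neither gene would thus have passed the dim filter on the control channel, and on the laser channel only ADORA2A would. At 1 hr the laser channel was above the limit on 2 of 6 arrays and the control channel on 1, so the ADCY1 ratio of that time point comes from spots mostly at background.

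After background correction and loess normalization, the log2 ratio of ADORA2A, laser over control, was 0.26 in replicate 1 and 0.13 in replicate 2 at 30 min. It was 0.67 and 0.15 in the 2 samples at 1 hr, and 0.05 and 0.07 in those at 2 hr. At 3 hr the 3 samples had 0.20, 0.04 and 0.19. All 9 values lie above 0, as the choice of the gene required, and 1 hr replicate 1 stands highest while 7 of the 9 lie at 0.20 or below. The mean was 0.19 ± 0.09 at 30 min, or 1.14-fold, and 0.41 ± 0.37 at 1 hr, or 1.33-fold (SD, n = 2 each). For 2 hr it was 0.06 ± 0.02, or 1.04-fold (SD, n = 2), and for 3 hr 0.14 ± 0.09, or 1.10-fold (SD, n = 3). The fit that shares its estimate of spread over the time points gave standard errors of 0.16 at the first 3 times and 0.13 at 3 hr. Ordered by level, the means run 1 hr, 30 min, 3 hr and 2 hr, and the means that stand next to each other in this order lie within 0.22 of each other, against a shared standard error of a difference of 0.22 between times with 2 samples.

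Only 2 of the 371 tested probes, 0.539%, lay above 0 in 9 of 9 samples, and 1 (0.27%) lay below 0 in all of them. The other probe above 0 throughout was XBP1, a transcription factor of the unfolded protein response, whose lowest sample was 0.0011 in 30 min replicate 1. ADORA2A's lowest was 0.04 in 3 hr replicate 2. Just outside this limit were LOC58500, with a lowest value of -0.00099 in 1 hr replicate 2, and NFYC, a subunit of the CCAAT-binding factor NF-Y, with -0.06 in 2 hr replicate 2, both above 0 in the other 8 samples, as 7 probes (1.89%) were in all. These values chose ADORA2A and are not evidence of a change.

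**Figure D2:**
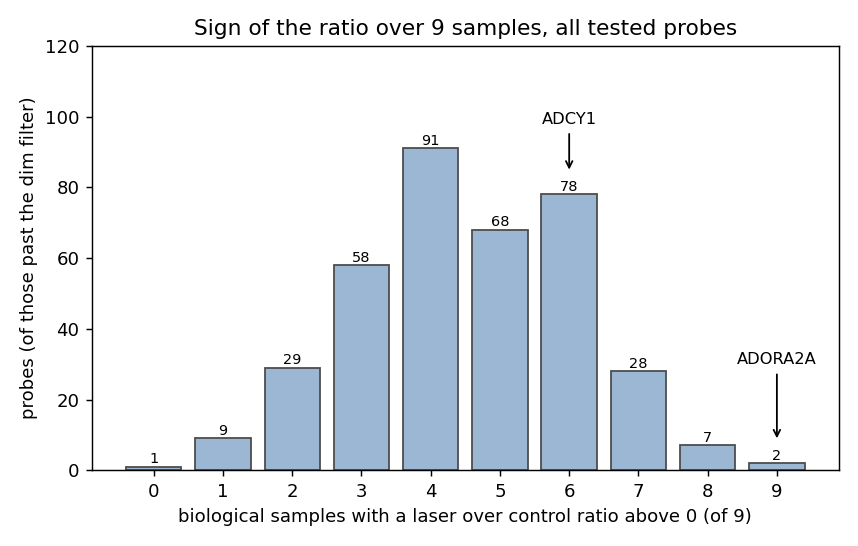
Number of the 371 tested probes (vertical axis) by the number of the 9 biological samples in which the log2 ratio of laser over control lay above 0 (horizontal axis), with the columns that hold ADORA2A and ADCY1 marked. Most probes fall between 3 and 6 samples, ADORA2A is 1 of 2 probes at 9, and ADCY1 is 1 of 78 at 6.

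On single arrays, read by the headers, the ADORA2A ratio went with the dye. With the laser RNA in Cy5, 15 of 15 arrays were above 0, with a lowest value of 0.0012, a median of 0.50 and a highest of 2.16. With the laser RNA in Cy3, 8 of 18 arrays were above 0, with a lowest of -2.07, a median of -0.02 and a highest of 0.92. The orientation means were above 0 in 9 of 9 samples for laser in Cy5, which held for 3 of the 371 tested probes (0.809%), and in 2 of 9 for laser in Cy3. By the headers, the ratio thus kept its sign over all samples with laser in Cy5 and in the mean of both orientations, and not with laser in Cy3. The arrays of both orientations overlap in part. Read by file name, the laser-in-Cy3 means of 2 hr replicate 2 and 3 hr replicate 2 were 0.53 and 2.07, in place of -0.31 and -2.07.

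The early samples show this array by array. In 30 min replicate 1 the array with laser in Cy5 gave 0.63 and the arrays with laser in Cy3 gave -0.02 and -0.19. In 30 min replicate 2 the corresponding values were 0.50 for Cy5 and -0.24 for Cy3. Both samples were positive with one dye and negative with the other. In 1 hr replicate 1, by contrast, all 4 arrays were above 0, at 0.41 and 1.09 with laser in Cy5 and at 0.26 and 0.92 with laser in Cy3, and this was the only sample with every ADORA2A array above 0. Its lower value in each orientation came from the array whose file header names the field TF3 (sample ratio 0.33 from those 2 arrays). Its higher value came from the array with the field TF3.1 (1.01). In this sample the field name coincides with the number of the repeat array, and the part of each was not tested. The highest ADORA2A ratio therefore differed in size between repeat arrays and kept its sign. In 1 hr replicate 1 ADCY1 was also above 0 on all 4 arrays, and 60.4% of the tested probes had a sample ratio above 0.

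In 1 hr replicate 2 the array with laser in Cy5 gave 2.12 and the array with laser in Cy3 gave -1.82. In 3 hr replicate 2 they gave 2.16 and -2.07. By the dyes of the headers, the normalized Cy5 signal of ADORA2A was the higher one in both samples with either RNA, and the ratios of 0.15 and 0.04 are the small remainders of values near 2 with opposite sign. Both samples are among those of unsettled direction. Read by file name, the array with laser in Cy3 of 3 hr replicate 2 gave 2.07 instead, and the sample ratio was 2.11. The duplicate spots of ADORA2A differed by no more than 0.315 log2 units on any of these 4 arrays, so both spots gave the same picture after the same correction. Before background correction and normalization, 1 hr replicate 2 had log2 ratios of -0.46 with laser in Cy5 and -0.17 with laser in Cy3. For 3 hr replicate 2 they were -0.18 and 0.60, so the values near 2 were reached only after these steps. By the headers, the Cy3 signal of 3 hr replicate 2 did not exceed the background limit on either array (1.17 and 1.01 times background).

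At 2 hr, replicate 1 gave 0.11 with laser in Cy5 and -0.53, 0.52 and -0.01 with laser in Cy3, and replicate 2 gave 0.84 and 0.06 with laser in Cy5 and 0.22 and -0.84 with laser in Cy3. At 3 hr, replicate 1 gave 0.0012, 0.41 and 0.23 with laser in Cy5 and 0.66, -0.24 and 0.14 with laser in Cy3. Replicate 3 gave 0.50, 0.25 and 0.73 with laser in Cy5 and 0.05, 0.08 and -0.48 with laser in Cy3. In 3 hr replicate 1 and in both samples at 2 hr the orientations overlapped, whereas in 3 hr replicate 3 every Cy5 value exceeded every Cy3 value.

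**Figure D3:**
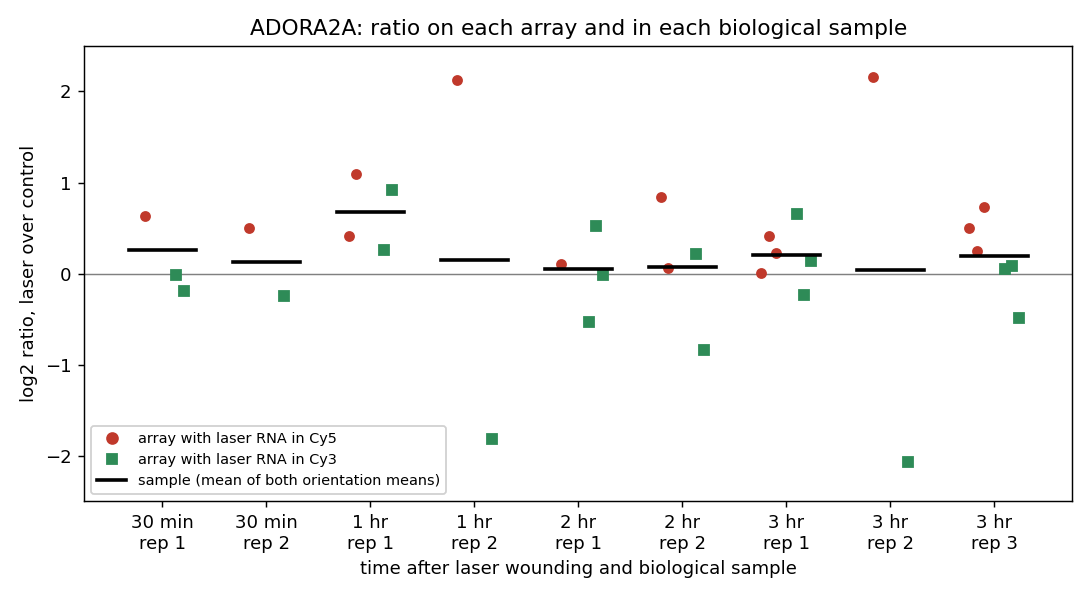
Log2 ratio of ADORA2A, laser over control, on each of the 33 arrays by biological sample and time (horizontal axis), with circles for laser RNA in Cy5, squares for laser RNA in Cy3 and a bar for the sample, which is the mean of both orientation means. All 15 circles lie above 0 and 8 of the 18 squares do, and in 1 hr replicate 2 and 3 hr replicate 2 the points lie near 2 and -2 with the bar at 0.15 and 0.04.

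The part of the signal that went with the dye was taken as the difference between the orientation means (laser in Cy5 minus laser in Cy3) divided by 2, positive where Cy5 was the higher, with the dyes of the headers. For ADORA2A this dye part was above 0 in all 9 samples, which held for 3 of 371 probes (0.809%). In the 5 samples of settled direction alone it lay between 0.01 and 0.37, above 0 in 5 of 5, which held for 9 probes (2.43%), and it was wider than the ratio in 3. Over all samples it was wider than the laser over control ratio in 7 of the 9, which held in 7 samples or more for 40 probes (10.8%). It was 1.97 for 1 hr replicate 2 and 2.11 for 3 hr replicate 2, the 7th and the 6th widest of the 371 probes in those samples, where 12.9% and 11.3% of probes had a dye part wider than 1. In the other 7 samples it lay between 0.01 and 0.38. By the headers, a wide dye part was thus shared by many probes in these 2 samples, and ADORA2A was among the widest. Read by file name, the ADORA2A dye part in 3 hr replicate 2 was 0.04, rank 293 of 371, and 0.27% of probes had one wider than 1. In 2 hr replicate 2 it was -0.04 by file name, rank 335, against 0.38 by the headers, and the sample ratio was 0.49. By file name the ADORA2A dye part was thus not above 0 in all samples. Which reading holds was not tested. Without the 2 samples, an exclusion chosen after seeing the data, ADORA2A stood at 0.67 at 1 hr (n = 1) and at 0.19 at 3 hr (n = 2).

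For ADCY1 the dye part was between -0.08 and 0.30 over the 9 samples and wider than the ratio in 4 of them. For 1 hr replicate 2 and 3 hr replicate 2 it was -0.08 and 0.04. On every array of these samples ADCY1 did not exceed the background limit in either channel, so its dye part there could not show an effect of the dye. The ADCY1 spots lie in the row next to those of ADORA2A, in the same block of the array. Other close neighbours of ADORA2A on the slide had dye parts of 1.33 and 0.69 (ZXDA/B), 1.16 and 0.42 (PRKCSH), and -0.80 and -0.97 (SIX4) in these samples. Over the 33 arrays, the Cy5 over Cy3 ratio of ADORA2A correlated with those of its 8 neighbours at a Pearson r between -0.30 and 0.70, highest for ZXDA/B and PRKCSH (0.63), and that of ADCY1 with its 8 neighbours at between -0.31 and 0.86, highest for KIAA0444 and CACNA2D1 (0.59). The part of the position on the slide was not tested.

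**Figure D4:**
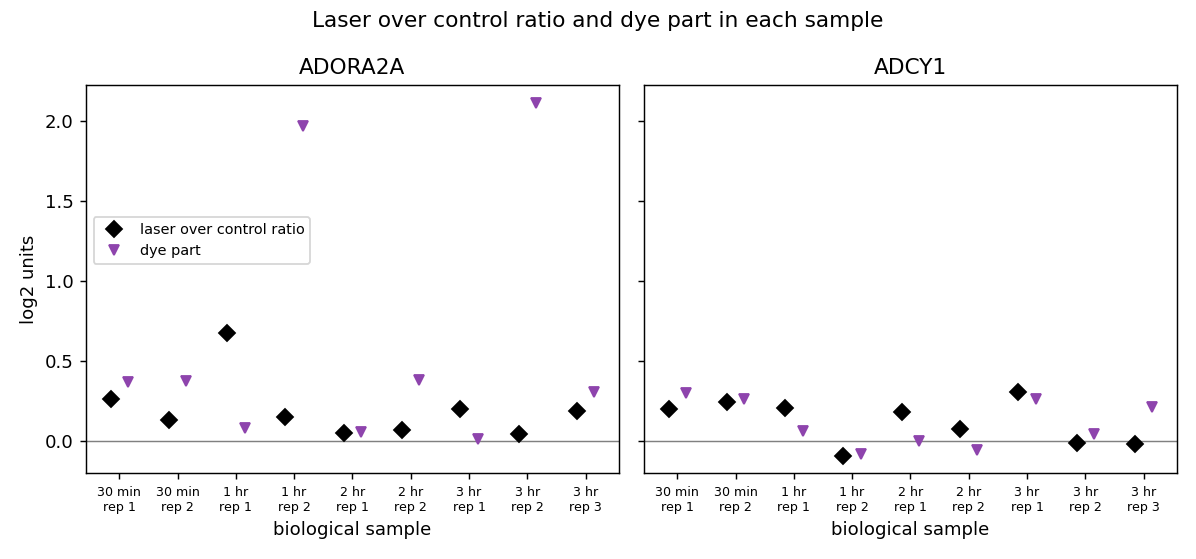
Laser over control ratio (diamonds) and dye part, the difference between both orientation means divided by 2 (triangles), in log2 units for ADORA2A (left) and ADCY1 (right) in each of the 9 biological samples. With the dyes of the headers, the ADORA2A dye part reaches 1.97 (1 hr replicate 2) and 2.11 (3 hr replicate 2) and exceeds the ratio in 7 samples. No ADCY1 dye part exceeds 0.30, but in 1 hr replicate 2 and 3 hr replicate 2 the ADCY1 signal did not exceed the background limit on any array.

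Because the direction is not settled in 4 samples, the ADORA2A means were also computed with one or both orientations of those samples turned. With their arrays of laser in Cy5 left unturned, the means were -0.65 for 1 hr, -0.17 for 2 hr and -0.74 for 3 hr, and 5 of 9 samples lay above 0. With their arrays of laser in Cy3 turned and the others kept, an alternative added after seeing the data, the means were 1.32, 0.21 and 0.87. With both turned, they were 0.26, -0.01 and -0.01. With the channels read by file name, the mean was 0.27 at 2 hr and 0.83 at 3 hr. The 30 min mean of 0.19 was the same under each of these readings because they altered no 30 min array. Its samples did not fall below the limit of -0.3, but 30 min replicate 2 had an orientation correlation of -0.037. Both 30 min samples were negative with laser in Cy3. In the 5 samples of settled direction the ratio lay between 0.05 and 0.67, above 0 as the choice of the gene required.

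ADORA2A did not pass a test for differences between the time points. Its choice used the sign of these same ratios and not their order over time. Since all ratios had to lie above 0, which limited how far they could differ, the p-values and intervals below are not independent of the choice. They do not show that the ratio was stable over time. The largest contrast was 2 hr minus 1 hr, at -0.35 (95% interval -0.87 to 0.17, limma adjusted p = 0.995), and 1 hr minus 30 min was 0.22 (interval -0.31 to 0.74, limma adjusted p = 1.000). Over the 4 time points together, limma's F test gave an adjusted p of 0.998 (unadjusted 0.478), where 0 of 371 probes passed at an adjusted p of 0.05 and 1 (0.27%) at an unadjusted p of 0.05. With 2 samples each, the interval for 1 hr minus 30 min reaches 0.74 log2 units, and given the choice of the gene it does not bound the difference.

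ADCY1 had log2 ratios of 0.20 and 0.24 at 30 min and of 0.20 and -0.09 at 1 hr. The later samples had 0.18 and 0.07 (2 hr) and 0.31, -0.01 and -0.02 (3 hr). The ratio was above 0 in 6 of 9 samples, which 115 of the 371 probes (31%) matched or passed, so the cyclase did not stand out by its sign. The mean was 0.22 at 30 min (SE 0.15, 95% interval -0.13 to 0.57, limma adjusted p = 0.990, higher in 2 of 2 samples) and 0.06 at 1 hr (SE 0.15, interval -0.29 to 0.40, adjusted p = 0.991 by limma, higher in 1 of 2). At 2 hr it was 0.12 (SE 0.15, interval -0.22 to 0.47, limma adjusted p = 0.995, higher in 2 of 2) and at 3 hr 0.09 (SE 0.12, interval -0.20 to 0.38, limma adjusted p = 0.783, higher in 1 of 3). All 4 intervals include 0, and at an adjusted p of 0.05 limma passed 0 of the 371 probes (0%) at each time. At an unadjusted p of 0.05, limma passed 3 probes (0.809%) at 30 min, 4 (1.08%) at 1 hr, 6 (1.62%) for 2 hr and 7 (1.89%) for 3 hr, ADCY1 not among them.

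No change of ADCY1 larger than 0.57 log2 units in either direction lay within these intervals, but the 3 hr mean was 0.54 with median centring in place of loess and 0.61 from the deposited ratios (limma adjusted p = 0.419 and 0.301). The 1 hr mean turned to -0.09 without 1 hr replicate 1, and the 3 hr mean to -0.02 without 3 hr replicate 1, the sample with the widest spread of ratios over all probes (SD 1.03, against 0.162 to 0.401 in the other samples). In 3 hr replicate 1 ADCY1 stood at 0.44 on the 4 arrays whose headers name the field TF2 and at 0.04 on the 2 with the field TF3. Without all arrays of the field TF2 the 3 hr mean of ADCY1 was 0.0031. The part of the field was not tested. Under the readings with turned orientations ADCY1 stayed between 0.02 and 0.18 at 1 hr, 2 hr and 3 hr. No contrast of ADCY1 between the times passed, with values between -0.16 (1 hr minus 30 min) and 0.07 (2 hr minus 1 hr) and a limma F test adjusted p of 0.998 (unadjusted 0.874).

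By array, ADCY1 was above 0 on 13 of 15 arrays with laser in Cy5, with a lowest value of -0.78, a median of 0.18 and a highest of 1.12, and on 8 of 18 arrays with laser in Cy3, with a lowest of -0.62, a median of -0.01 and a highest of 0.71. Both ends of the Cy5 range came from late samples. In 2 hr replicate 2 the arrays with laser in Cy5 gave 0.81 and -0.78, a gap of 1.59 between technical repeats of the same RNA pair, and in 3 hr replicate 1 they gave 1.12, 0.07 and 0.51. These gaps between repeat arrays of one RNA pair and orientation are wider than the spread of the ADCY1 samples, whose ratios spanned -0.09 to 0.31. Most other sets of repeats also had wider gaps, from 0.418 (1 hr replicate 1, laser in Cy5) to 0.811 (2 hr replicate 1, laser in Cy3). The repeats lay closer in 30 min replicate 1 (0.313), in 1 hr replicate 1 with laser in Cy3 (0.289) and in 3 hr replicate 3 with laser in Cy5 (0.355).

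**Figure D5:**
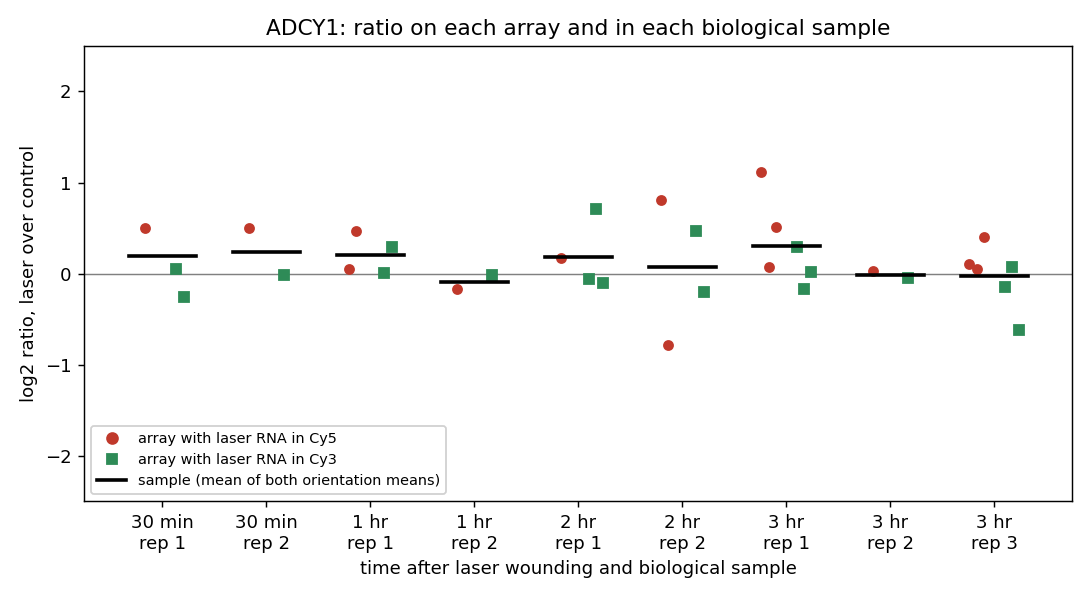
Log2 ratio of ADCY1, laser over control, on each of the 33 arrays by biological sample and time (horizontal axis), with circles for laser RNA in Cy5, squares for laser RNA in Cy3 and a bar for the sample, which is the mean of both orientation means, on the same vertical scale as the plot of ADORA2A by array. The bars lie between -0.09 and 0.31, and the arrays of one sample reach from -0.78 to 0.81 in 2 hr replicate 2.

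Over the 9 samples the ratios of both genes correlated at a Pearson r of 0.31 (Spearman rho 0.38), points that share arrays, normalization and adjacent spots. Over all 33 arrays r was 0.27 (rho 0.57), and both genes had the same sign on 29 of them. By orientation r was 0.45 (rho 0.69) for the 18 arrays with laser in Cy3 and -0.15 (rho -0.11) for the 15 with laser in Cy5. The receptor was highest in 1 hr replicate 1 and the cyclase in 3 hr replicate 1, so the samples did not rank alike for both. The 5 probes whose ratios ranked most like ADORA2A over the 9 samples were TITF1 (rho 0.783, the thyroid and lung factor now called NKX2-1), KRT12 (0.733, a keratin of the cornea), KIAA0161 (0.733), ZNF155 (0.717) and EEF1A1 (0.7, an elongation factor of translation). Those most like ADCY1 were MORF (0.883, a histone acetyltransferase), MAD4 (0.833, a partner of MAX), BC000584 (0.833), TAF2B (0.817) and RALGDS (0.75, an exchange factor for Ral). With 9 points and 370 other probes these are the upper end of a list and no more, and a rho above 0.7 was reached by 1.08% of probes for ADORA2A and 1.89% for ADCY1.

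Other genes of the pathway were looked for in the same arrays, so their means at 1 hr, 2 hr and 3 hr include the 4 samples of unsettled direction. Of 50 names of cAMP and CREB signalling that were looked for, 14 were on the array, and ADORA2A, ADCY1, CREB1, ATF7 and EP300 passed the dim filter, 5 of 14, where 24.5% of all identifiers did. No other adenosine receptor and no other adenylyl cyclase was among the 14. Leaving out ADORA2A, 3 of the 4 tested genes had a mean ratio above 0 at the first 2 times and all 4 did at 2 hr and 3 hr, where 43.9%, 50.9%, 49.1% and 42.6% of all 371 probes lay above 0 in time order. Their medians were 0.12, 0.05, 0.17 and 0.15, against medians over all tested probes of -0.04, 0.0021, -0.0043 and -0.06. In limma, 0 of the 4 passed at an adjusted p of 0.05 in either direction at any time, and 0 passed at an unadjusted p of 0.05, so none of them passed.

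EP300 is a histone acetyltransferase that CREB1 recruits. It gave 0.19 and 0.50 in the 2 samples at 2 hr, with a mean of 0.35 (SE 0.16, limma adjusted p = 0.995) and dye parts of -0.29 and 0.65. At 3 hr its 3 samples had 0.42, 0.00094 and 0.18, with a mean of 0.20 (SE 0.13, limma adjusted p = 0.656). CREB1, the transcription factor that protein kinase A phosphorylates, had means of -0.07 at 30 min, -0.15 at 1 hr and 0.05 at 2 hr, with both samples on the same side of 0 each time and an SE of 0.17. At 3 hr CREB1 had 0.58, 0.23 and -0.02, with a mean of 0.26 (SE 0.13, limma adjusted p = 0.656) and dye parts of 0.61, 0.03 and 0.13. ATF7, a relative of CREB1, had the widest mean of these genes, 0.42 at 30 min (SE 0.22, limma adjusted p = 0.990), from samples at -0.04 and 0.88. Its later means were 0.05 (1 hr), 0.21 (2 hr) and 0.08 (3 hr).

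Of 29 names of genes that CREB1 is known to turn on, 23 were on the array and 4 passed the dim filter (24.5% of all identifiers did), namely FOSB, JUNB, NFIL3 and CEBPB. FOS, the EGR genes and the NR4A genes, the best-known early targets of cAMP, were on the array and stayed below the filter. The mean ratio lay above 0 for 1 of the 4 at each of the first 3 times and for 2 at 3 hr. Of all tested probes, 43.9%, 50.9%, 49.1% and 42.6% lay above 0 in time order. The medians of the 4 were -0.20, -0.09, -0.09 and -0.13, against medians of -0.04, 0.0021, -0.0043 and -0.06 over all tested probes. In limma, 0 of the 4 passed at an adjusted or an unadjusted p of 0.05 at any time. FOSB, a subunit of AP-1, gave 0.47 and 0.12 at 30 min, with a mean of 0.30 (SE 0.20, limma adjusted p = 0.990). At 3 hr it gave 0.78, 0.05 and 0.31, with a mean of 0.38 (SE 0.17, limma adjusted p = 0.656), and at 2 hr both samples were slightly below 0, at -0.04 and -0.01. CEBPB, a bZIP factor of inflammation, had means of -0.41 at 30 min, -0.18 at 1 hr and -0.15 at 2 hr with a wide SE of 0.48. At 3 hr its mean was -0.57 (SE 0.39), from samples at -2.01, 0.27 and 0.04. JUNB had -0.31 at 30 min, -0.32 at 1 hr and -0.16 at 2 hr (SE 0.37), and -0.41 at 3 hr (SE 0.30). Its samples lay on both sides of 0 at each time except 2 hr. By the headers, the JUNB dye part was -2.10 in 1 hr replicate 2 and -2.30 in 3 hr replicate 2. The JUNB ratios there, -0.74 and 0.13, are remainders of wide values with opposite sign. NFIL3, a bZIP repressor, had -0.08 at 30 min, 0.08 at 2 hr and 0.14 at 3 hr (SE 0.12 and, at 3 hr, 0.10).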

How the data were processed

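Spot tables of 33 arrays, 1 per dye, hold the mean and median spot and local background intensity as the authors deposited them, made with ImaGene 4.1 per the file headers, with no normalization. The authors also deposited log2 ratios of laser over control, which equal the raw ratio of the mean intensities read by file name (largest difference 6.217e-15) and served only as an alternative. The lowess-normalized values of the study were not used here. The headers give the dye of the laser RNA, and the header was followed on 2 arrays where file name and header disagree. Background was corrected by normexp (offset 50) and arrays were normalized by loess, using R 4.3.3 and the packages limma 3.58.1 and statmod 1.5.0. The 18 control identifiers had weight 0 in the loess and were left out afterwards. Of the 3072 spots on an array, 0 carried a flag. Duplicate spots were averaged, then arrays within each dye orientation, then both orientations, which gives 1 value per biological sample. Arrays of a sample are technical repeats, so n counts biological samples. The number of arrays and the dim signals limit the precision.

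limma's lmFit and eBayes fitted a mean per time point on the 9 samples together (5 residual degrees of freedom), with Benjamini-Hochberg adjustment over the 371 probes that passed the dim filter. The study's methods name a 1-sample t-test on hybridizations, which was run as an alternative. The scripts were tested on simulated data. The genes, the pathway lists and the tests were chosen with earlier results of these data known. Named genes are ADORA2A and ADCY1, the 5 probes with the highest Spearman rho to each, and from each pathway list up to 3 tested probes per time point with the same sign in all samples and the widest means. XBP1, LOC58500 and NFYC are named as the probes on both sides of the rule's limit, and the neighbours on the slide were chosen for their position. Array names are those of the human design. Both ADORA2A and ADCY1 are current chicken gene symbols in the RefSeq table of GRCg7b, as are 27 of the 37 pathway list names on the array. Alternatives changed the background correction, normalization, dim filter, channel reading, orientation, the header fields included and sample weights, added a replicate block or left out a sample.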

Additional observations from a re-analysis of the deposited data

How the results depend on the processing

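Across 32 alternatives (9 of them leaving out 1 biological sample), neither gene passed an F test or a contrast between time points in any that gave one. The smallest limma adjusted p over the contrasts was 0.672 for ADORA2A and 0.666 for ADCY1, and against 0 ADCY1's smallest adjusted p at the successive times was 0.761, 0.932, 0.511 and 0.301. For ADORA2A these p-values are not independent of its choice, so they do not show that its ratio was stable over time. ADCY1 at 2 hr stayed above 0 in all 30 alternatives that gave it. The cause of the changes below was not tested unless stated.

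Without background correction ADORA2A was 0.017 at 30 min and -0.029 at 2 hr and ADCY1 -0.016 at 30 min. Median spot signals gave ADORA2A 0.32 at 30 min. Median centring in place of loess gave ADCY1 -0.024 at 1 hr and ADORA2A -0.082 at 2 hr and 0.52 at 3 hr (ADCY1 0.54), and the deposited ratios, centred, gave ADORA2A -0.039 at 30 min, -0.19 at 2 hr and 0.64 at 3 hr (ADCY1 0.61). ADORA2A was above 0 in 7 samples without background correction, 7 with median centring and 6 in the deposited ratios. Reading channels by file name gave ADORA2A 0.27 at 2 hr and 0.83 at 3 hr.

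With the laser-in-Cy5 arrays of the 4 unsettled samples unturned, ADORA2A was -0.65 at 1 hr, -0.17 at 2 hr and -0.74 at 3 hr, above 0 in 5 samples. With both orientations turned it was -0.011 at 2 hr and -0.0097 at 3 hr, above 0 in 5 samples. With the laser-in-Cy3 arrays turned alone, added after seeing the data, it was 1.32 at 1 hr, 0.21 at 2 hr and 0.87 at 3 hr. Leaving out the 4 samples left 5, all above 0 as ADORA2A's choice required, and limma then called 103 probes with 1 sample at each of 3 times, assumed to vary like the 30 min pair. Laser-in-Cy3 arrays alone gave ADORA2A -0.17, -0.62, -0.16 and -0.67 at the successive times, above 0 in 2 samples, and ADCY1 -0.060 at 30 min and -0.079 at 3 hr. Laser-in-Cy5 arrays alone gave ADORA2A 0.56, 1.44, 0.28 and 0.95, and ADCY1 0.50, 0.04, 0.09 and 0.26.

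Samples with the same replicate number deviated together at correlations between -0.369 and 0.255 over 12 pairs, so the numbers were not taken to pair samples. At times with 2 samples the deviations of replicates 1 and 2 mirror each other. Pairs between such times therefore repeat the same correlation and are not separate checks. A replicate block gave ADCY1 -0.0016 at 1 hr and ADORA2A 0.082 at 2 hr and called 0 probes. Arrays taken as units, blocked by sample, gave ADORA2A 0.14 at 2 hr and called 34 probes. Quality weights gave ADCY1 -0.011 at 3 hr. On arrays with the header field TF3 alone, added after seeing the data, ADCY1 was -0.033 at 1 hr and -0.011 at 3 hr. ADORA2A was then above 0 in 8 samples, the exception being 2 hr replicate 1 at -0.21. The methods' t-test called 0 probes after adjustment, on samples and on arrays.

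Leaving out 1 sample moved ADORA2A between 0.13 and 0.26 for 30 min, 0.15 and 0.67 for 1 hr (0.15 with 1 hr replicate 1 left out), 0.048 and 0.070 for 2 hr, and 0.11 and 0.19 for 3 hr. ADCY1 moved between 0.20 and 0.24 at 30 min, -0.094 and 0.20 for 1 hr (-0.094 without 1 hr replicate 1), 0.07 and 0.18 for 2 hr, and -0.018 and 0.15 at 3 hr (-0.018 without 3 hr replicate 1). Calls over all probes were 0 to 1, the 1 without 3 hr replicate 1. Signals near background limit both genes, ADCY1 the more.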
